A study of Mus musculus with 3 samples.

Results

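Kinesin motor genes were examined as 1 gene family in cultured neural precursors. They were chosen by name alone: every gene whose symbol is Kif or Kifc followed by a digit and whose probe set carries that symbol and no other. This gave 42 genes of 22180 on the array, read by 45 probe sets. Kif5b, Kif7 and Kif27 had 2 probe sets each, and of these the brighter by mean over the arrays stood for the gene. Kif4-ps, a pseudogene of Kif4, meets the rule and is counted.

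The study comprised 3 expression arrays of a single group. Each was hybridised with total RNA from neurospheres, free-floating colonies of neural stem and precursor cells. The cells were taken from the ventricular-subventricular zone, the germinal layer beside the ventricles of the forebrain. The donors were wild-type CD1 mice labelled postnatal day 8, and the cells had grown for 7 days with 10 ng/ml FGF, 20 ng/ml EGF, 2% B27 and 2 µg/ml heparin after plating at 10 cells/µl. All 3 arrays share this genotype, strain, age and medium, so there is no treated or control group. Pups were cultured independently, but the labels do not say if an array is 1 pup. The p-values therefore rest on spread between the 3 arrays alone, which the test shared among genes of like signal. That spread may be technical.

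Kinesins are motor proteins that use ATP to walk along microtubules or to take them apart at their ends. One set builds the mitotic spindle, moves chromosomes and organises the cleavage furrow, and its genes are transcribed mainly in dividing cells. Another set carries vesicles, organelles and RNA granules, and some of its members are abundant in neurons, whose long processes depend on transport. A smaller set works at cilia.

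Each signal is a log2 value. A gene counted as above the reference level when its margin, the signal minus the 95th percentile of 1400 olfactory and vomeronasal receptor probe sets on the same array, exceeded 0 by limma's one-sided test (adjusted p under 0.05 over all genes). The reference levels were 5.63, 5.53 and 5.71 on arrays 1, 2 and 3. Probes bind with different strength, so the signals of different genes are not on a common scale, and the order of 2 genes by signal is not an order of RNA amount. In RNA from whole cultures, fewer cells of a type and less RNA per cell cannot be told apart.

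Both the division machinery and the transport machinery were represented. Of the 42 kinesin genes, 37 (88.1%) were above the reference level, and the same number lay above it on each array. The background was 59.1% of all genes by the limma call, 62.8% of genes other than the receptors, and 59.6% of all genes by the rule of each array. Of 13 mitotic kinesins, 11 (84.6%) were above, and of 16 transport kinesins all 16. The 5 genes not above were Kif2b, Kifc1, Kif27, Kif12 and Kif4-ps. The family's median margin was 1.68, beside 0.76 for all genes.

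**Figure D1:**
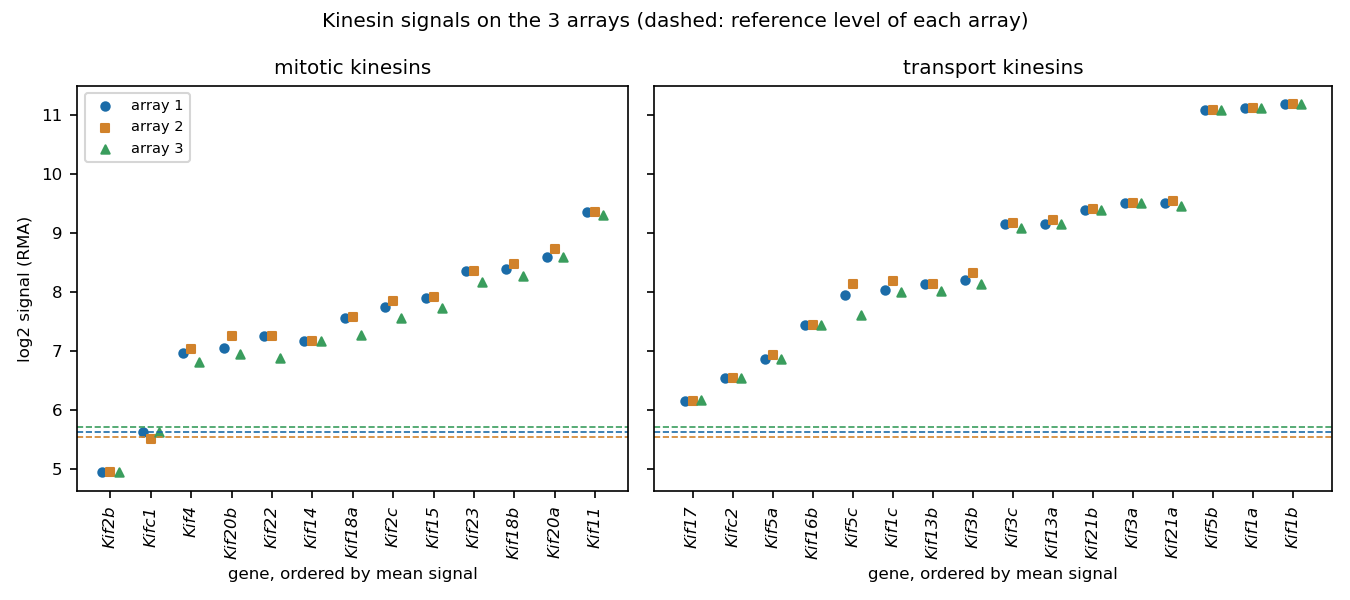
Log2 signal of each mitotic (left) and transport (right) kinesin gene on array 1 (circles), array 2 (squares) and array 3 (triangles), with genes ordered by mean and the reference level of each array as a dashed line. Only Kif2b and Kifc1 do not clear the dashed lines, and Kif1b, Kif1a and Kif5b have the highest signals, at 11.18, 11.12 and 11.08.

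Of the motors that set up the spindle, Kif11 and Kif15 were above the reference level and Kifc1 was not. Kif11 (Eg5), the motor that pushes the spindle poles apart, had 9.36, 9.36 and 9.30 on arrays 1, 2 and 3 (9.34 ± 0.035, mean ± SD, n = 3). Kif15, which helps to keep the spindle bipolar, had 7.90, 7.92 and 7.73. Both were above it on each array and lowest on array 3. Kifc1 (HSET), a motor that gathers microtubules at the poles, lay near the level, with 5.63, 5.50 and 5.63 and a margin of -0.04 ± 0.044. The related gene Kifc5b, which shares older names with Kifc1 in the RefSeq gene table, was above with 6.12, 6.33 and 6.21. Where sequences are this alike the array may not separate the 2 genes, so the call of each is uncertain.

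Motors of chromosomes and of microtubule length followed. Kif22 (Kid), a motor bound to chromosome arms, had 7.25, 7.25 and 6.88, and Kif4, which binds chromosomes and the central spindle, had 6.96, 7.03 and 6.81. Kif18a, which limits the length of kinetochore microtubules, had 7.55, 7.57 and 7.27, and its relative Kif18b had 8.39, 8.47 and 8.27. These 4 genes each had their lowest value on array 3. Kif2c (MCAK), which takes microtubules apart at centromeres, had 7.74, 7.84 and 7.56, while its relative Kif2b stood at 4.94 on each array and under every reference level. The pseudogene Kif4-ps had 5.16, 5.11 and 5.45 and was not above, unlike Kif4 itself.

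All 4 motors of cell cleavage were above the reference level. Kif23 (MKLP1), which forms the centralspindlin complex with the product of Racgap1, had 8.36, 8.36 and 8.16. Kif20a (MKLP2), which brings Aurora B to the central spindle, had 8.59, 8.72 and 8.59. Kif20b, a motor of the midbody, had 7.05, 7.26 and 6.95. Kif14, a motor of cytokinesis, had 7.17 on each of the 3 arrays. Cenpe, the centromere kinesin outside the naming rule, was above too, with 7.85, 7.95 and 7.85.

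Short motifs around the gene starts were counted in both lists, as a description and with no test. RefSeq windows from 250 bases before to 50 bases after the annotated start (GRCm38.p6) were matched by symbol for 33 of the 42 genes, among them 12 mitotic and 11 transport kinesins. They were searched on both strands for TTTGAA (the cell cycle homology region, or CHR, bound by complexes that time G2 and M phase genes), CCAAT (bound by NF-Y), and TTTCCCGC or TTTGGCGC (E2F sites). In the kinesin windows no matches shared a base. A gene with several windows counted when any of them had the match. TTTGAA was present for 10 of 12 mitotic kinesins (83.3%), for 1 of 11 transport kinesins (9.09%) and for 20.2% of the 27025 genes with a window. It began within 30 bases of the start, a distance chosen after the positions were seen, for 8 of 12 mitotic kinesins (66.7%), for 0 of 11 transport kinesins and for 3.66% of all genes.

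The sequences show how these matches lie. The 4 mitotic kinesins with TTTGAA in the 120 bases before the start are printed, followed by 3 transport kinesins: Kif3b with a CCAAT match, Kif5c with no match, and Kif1a with the single TTTGAA match of its list. All are 5′ to 3′ on the gene's strand and end at the base before the start. Capitals mark the motifs, on either strand (TTCAAA is TTTGAA reversed, ATTGG is CCAAT reversed, GCGCCAAA is TTTGGCGC reversed).
Kif11, chr19:37376262-37376381, plus strand: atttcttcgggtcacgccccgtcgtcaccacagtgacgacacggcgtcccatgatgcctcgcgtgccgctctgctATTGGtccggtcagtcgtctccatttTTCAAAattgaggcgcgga
Kif15, chr9:122950961-122951080, plus strand: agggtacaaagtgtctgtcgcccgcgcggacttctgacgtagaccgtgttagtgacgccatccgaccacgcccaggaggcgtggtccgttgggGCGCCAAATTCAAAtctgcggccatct
Kif22, chr7:127042421-127042540, minus strand: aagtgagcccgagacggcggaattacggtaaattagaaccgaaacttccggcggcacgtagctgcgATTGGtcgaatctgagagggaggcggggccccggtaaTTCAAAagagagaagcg
Kif2c, chr4:117178773-117178892, minus strand: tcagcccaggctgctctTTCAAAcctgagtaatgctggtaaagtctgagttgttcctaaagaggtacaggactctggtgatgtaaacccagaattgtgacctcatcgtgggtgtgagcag
Kif3b, chr2:153291296-153291415, plus strand: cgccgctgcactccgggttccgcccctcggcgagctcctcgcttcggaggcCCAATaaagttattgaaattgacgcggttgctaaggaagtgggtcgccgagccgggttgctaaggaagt
Kif5c, chr2:49619166-49619285, plus strand: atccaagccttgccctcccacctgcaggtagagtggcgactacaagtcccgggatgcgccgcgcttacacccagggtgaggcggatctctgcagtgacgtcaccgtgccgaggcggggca
Kif1a, chr1:93082481-93082600, minus strand: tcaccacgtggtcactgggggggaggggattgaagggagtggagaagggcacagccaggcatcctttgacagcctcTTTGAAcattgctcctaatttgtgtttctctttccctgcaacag

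Kif11 and Kif22 share a layout, and the other mitotic windows vary. In Kif11 and Kif22 a CCAAT match in reverse lies at bases -45 and -54, and a TTTGAA match in reverse at -19 and -17. In Kif15 the TTTGAA match at -19 follows directly on an E2F match at -27 to -20. Kif18b, Kif20b, Kif23, Kif4 and Kifc1 have TTTGAA just after the start, at bases 4, 8, 3, 20 and 2. Kif2c and Kif14 have TTTGAA only further from the start, at -103 and -228. Kif18a has no TTTGAA but an E2F match at -10, and Kif2b, which was not above the reference level, has neither.

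CCAAT was found for 8 of 12 mitotic kinesins (66.7%), 3 of 11 transport kinesins (27.3%) and 41.1% of all genes, and CCAAT together with TTTGAA in 1 window for 7 (58.3%), 0 and 7.97%. An E2F match was found for 2 mitotic kinesins (16.7%), 0 transport kinesins and 1.80% of all genes. The lists also differed in base composition: the median GC content was 60.2% in mitotic, 69.3% in transport and 52.7% in all windows, and its part in the counts was not tested. Among genes with a window of 50 to 60% GC, TTTGAA was present for 3 of 4 mitotic kinesins, 1 of 4 transport kinesins and 15.4% of all. The transport gene was Kif1a, by its downstream window alone. The spindle and cytokinesis genes named below had TTTGAA in 12 of 17 cases (70.6%), and the cargo adaptors in 2 of 22 (9.09%). A match says only that these letters are present in the window.

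**Figure D2:**
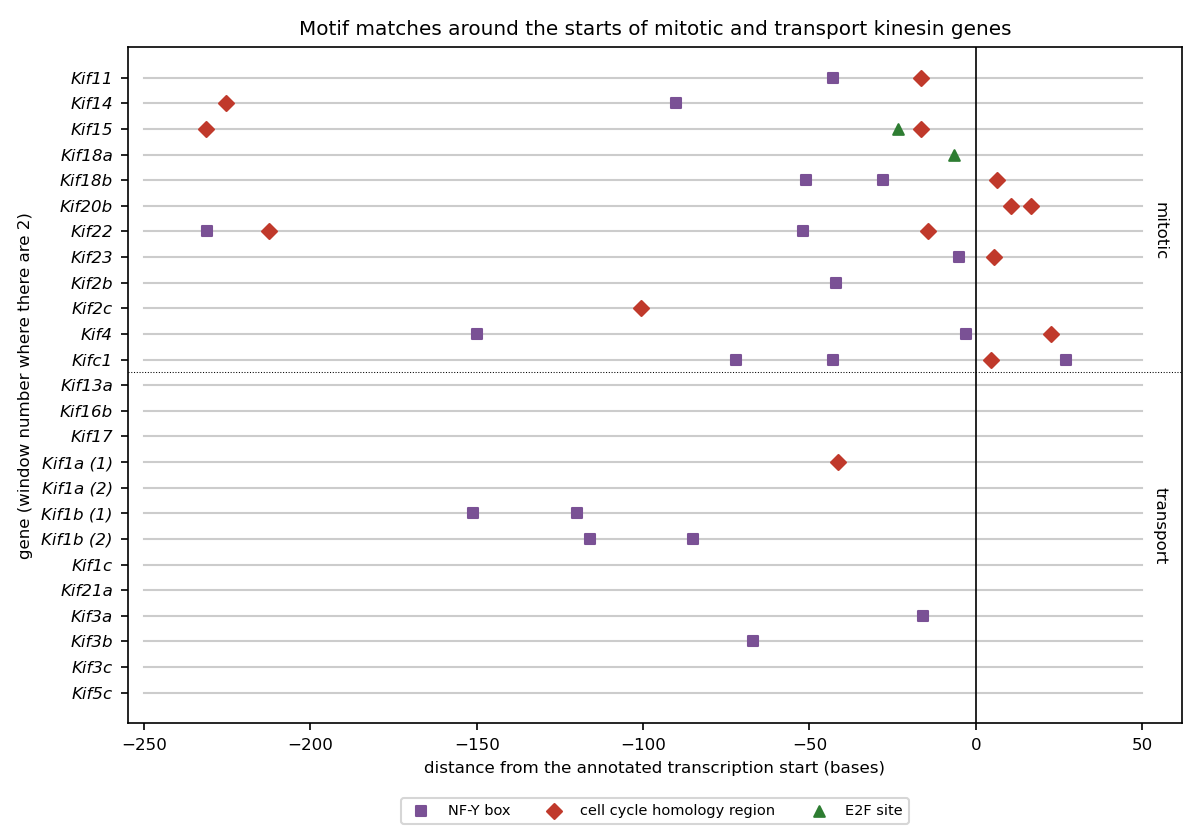
Positions of motif matches (squares NF-Y box, diamonds cell cycle homology region, triangles E2F site) from 250 bases before to 50 bases after the annotated start, 1 line per window, for mitotic kinesins above and transport kinesins below the dotted line. The diamonds of 8 mitotic genes lie within 30 bases of the start, and the transport genes have 1 diamond in all, in window 1 of Kif1a.

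Conventional kinesin, the general cargo motor, was detected through all 3 of its heavy chain genes. Kif5b, the form found in most tissues, had 11.08 on each array, although its other probe set stood at 4.86, 4.86 and 4.86, under the reference level. Kif5c, a neuronal form, had 7.95, 8.14 and 7.61, the widest range of any kinesin at 0.52 log2 units. It was highest on array 2 and lowest on array 3. A range over 0.5 was found for 2.57% of all genes above the level. Kif5a, the other neuronal form, had 6.86, 6.92 and 6.86.

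The kinesin-3 motors, which carry vesicle precursors, mitochondria and endosomes, were all above the reference level. Kif1a, known for the transport of synaptic vesicle precursors, had 11.12 on each array to 2 decimals, and Kif1b had 11.18 on each. Kif1c had 8.02, 8.18 and 7.99. Kif13a had 9.15, 9.22 and 9.15, and Kif13b had 8.14, 8.14 and 8.02. Kif16b, a motor of early endosomes, had 7.44 on each array.

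The kinesin-2 motors serve both cilia and transport in neurites. Kif3a and Kif3b form a heterotrimer with the product of Kifap3. Kif3a had 9.50 on each array, and Kif3b had 8.20, 8.32 and 8.14. Kif3c, a partner of Kif3a in neurons, had 9.15, 9.17 and 9.09. Kif17, which is known for moving NMDA receptor subunits in dendrites, was the closest of the transport motors to the reference level. It had 6.14, 6.14 and 6.17 (margin 0.52 ± 0.078, limma adjusted p = 4.08e-11). The limma p rests on the shared spread, and an ordinary test on the gene's own spread gave an adjusted p of 0.00752. With the reference set at the 99th percentile the call of Kif17 was lost (margin -0.25). So was that of Kifc2, a minus-end kinesin found in neurons, which had 6.54 on each array (margin then 0.14). The kinesin-4 motors Kif21a, with 9.50, 9.54 and 9.45, and Kif21b, with 9.38, 9.40 and 9.38, act on microtubule growth in axons and dendrites.

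Mitotic and transport kinesins were compared as lists, by counts and medians and without a test, since genes are not replicates and probe sets differ in strength. The median margin was 1.84 for mitotic kinesins (range -0.69 to 3.72) and 3.05 for transport kinesins (range 0.52 to 5.56). The mitotic minus transport difference was -1.12, -1.18 and -1.35 on arrays 1, 2 and 3 (-1.21 ± 0.12, n = 3), so the lists kept their order on each array. The transport median was 2.27 over the 7 members held to be enriched in neurons (Kif1a, Kif3c, Kif5a, Kif5c, Kif17, Kif21b and Kifc2), all above the reference level, and the difference was then -0.44. Taking a gene's median probe set value, which brings Kif5b down, made it -0.70. The size of the difference thus rests on which genes and probe sets are counted.

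**Figure D3:**
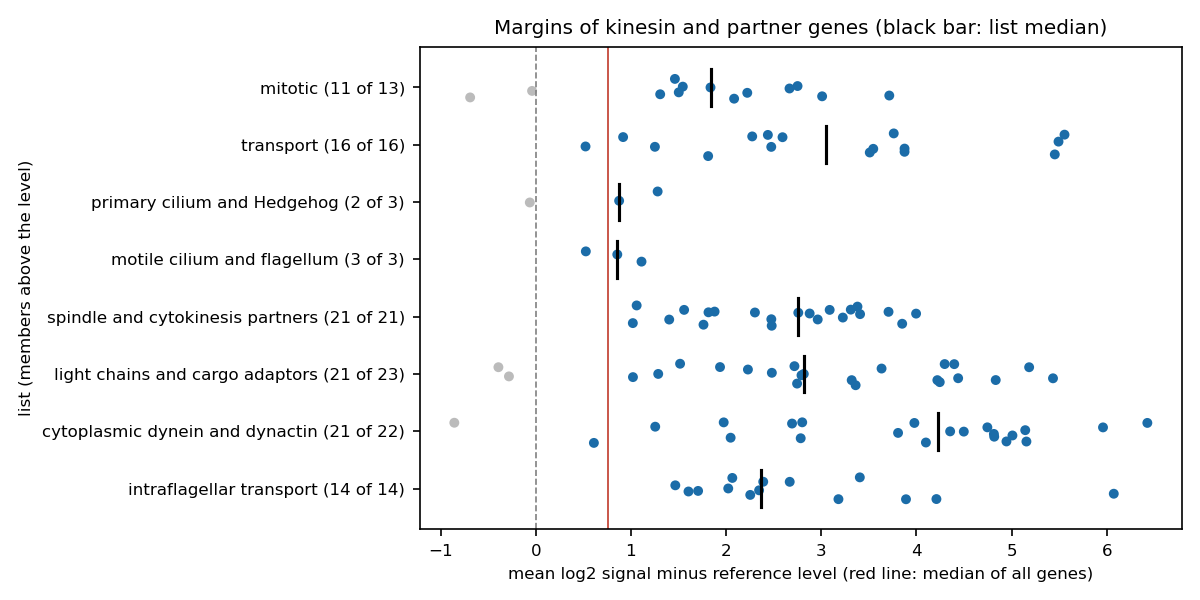
Margin of each gene (mean log2 signal minus the reference level, n = 3 arrays) for 4 kinesin and 4 partner lists, with genes above the level in blue, others in grey, list medians as black bars and the median of all genes, 0.76, as a red line. The mitotic median is 1.84 and the transport median 3.05, and the ranges of the lists overlap.

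The arrays differed little. Where they differed, array 3 was mostly the low one, for mitotic kinesins and for all genes above the reference level. This did not hold once genes under the level were included. The median signal of all genes was 6.39, 6.38 and 6.40 on arrays 1, 2 and 3. Of the 11 mitotic kinesins above the reference level, 9 (81.8%) had their lowest value on array 3 (the exceptions were Kif14 and Kif20a), beside 6 of 16 transport kinesins (37.5%) and 32.9% of all genes above the level. The median of array 3 minus the mean of arrays 1 and 2 was -0.18 for these mitotic kinesins, -0.02 for transport kinesins and 0 for all genes above the level. It ranged over the mitotic genes from -0.37 for Kif22 to 0 for Kif14. Genes equal on all 3 arrays cannot be lowest on array 3. They made up 15.4% of mitotic kinesins, 31.2% of transport kinesins and 39.4% of all genes. Array 3 lay below the mean of arrays 1 and 2 for 10 mitotic kinesins and above it for 0. These counts were 10 and 1 for transport kinesins, and 6468 and 1765 for all genes above the level. A low array 3 was thus not particular to mitotic kinesins. The highest value lay on array 2 for 7 mitotic (63.6%) and 10 transport kinesins (62.5%), beside 34.3% of all. This pattern was noticed in the data and has no group behind it.

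Other values moved with it, and their part in it was not tested. The reference level was highest on array 3 and lowest on array 2. The SD of the signals over all genes went the other way, at 2.30, 2.32 and 2.28 on arrays 1, 2 and 3. The SD of the log2 difference between arrays 2 and 3 over all genes was 0.21, against 0.15 for arrays 1 and 2 and 0.13 for arrays 1 and 3. Of 21 spindle and cytokinesis genes above the level, 12 (57.1%) were lowest on array 3, with a median of -0.04, and of 4 proliferation markers 2 were, with a median of -0.01. Counted on margins, all 27 mitotic and transport kinesins above the level were lowest on array 3, since the reference itself was highest there. After quantile normalisation the counts were 9 of 11 mitotic and 5 of 16 transport kinesins. With array 1 left out they were 10 of 11 and 10 of 16, and with array 2 left out 9 of 11 and 6 of 16.

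**Figure D4:**
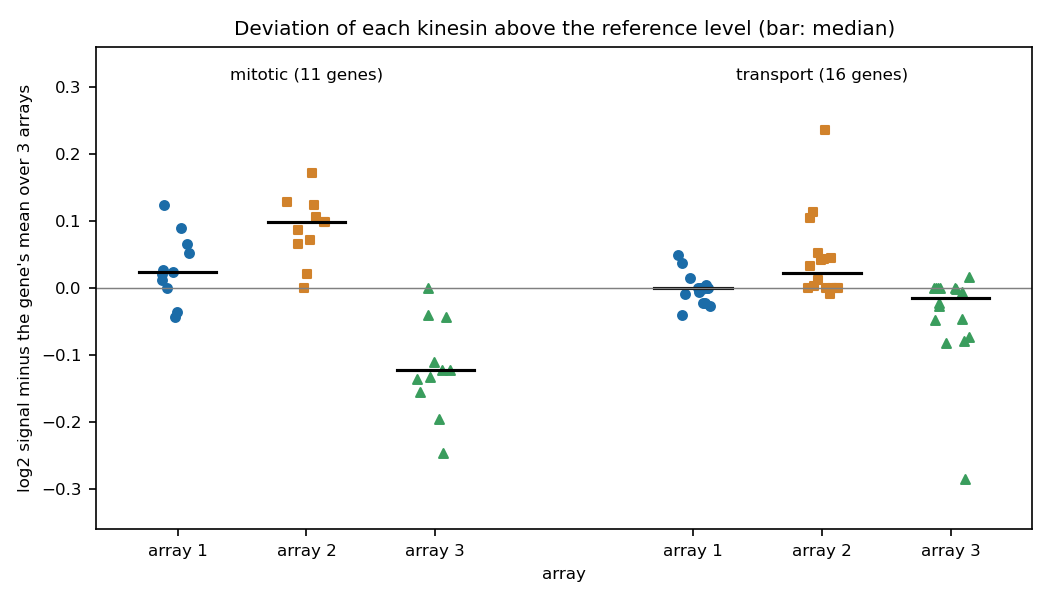
Log2 signal minus the gene's own mean over the 3 arrays, for the 11 mitotic and 16 transport kinesins above the reference level, by array, with a bar at the median. Among mitotic kinesins no point of array 3 lies above 0, and the lowest transport point on array 3 is that of Kif5c.

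Whether any kinesin differed between the arrays could not be settled by a test across all genes. Limma's variance test (residual over prior variance) called 0 of the 42 kinesins and 0% of all genes after adjustment, and 0% at an unadjusted p under 0.05. With quantile normalisation 1 of 42 kinesins had an unadjusted p under 0.05, beside 1240 of 22180 genes, and with median centring 1 kinesin, beside 1057 genes. The test says nothing about stability here, because it recovered 0 of 67 changes of 1 log2 unit added to the deposited values. Many values were exactly equal: 14 kinesins had the same value on all 3 arrays, 33.3% beside 39.4% of all genes, including 2 mitotic and 5 transport kinesins. An SD of 0 therefore understates the true spread.

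Of the 6 kinesins of cilia, 5 were above the reference level, beside 59.1% of all genes. Kif7, a regulator of Hedgehog signalling at the tip of the primary cilium, was above with 6.91 on each array, and its second probe set had 5.70, 5.70 and 5.81. Kif24, which restrains the outgrowth of cilia at the mother centriole, had 6.50 on each array, while Kif27, a relative of Kif7, had 5.54, 5.61 and 5.54 and was not above. The motile cilium genes Kif6 (6.15), Kif9 (6.74 ± 0.15) and Kif19a (6.48) were above at the 95th percentile. At the 99th percentile none of these 3 calls remained, nor did that of Kif24. The single gene Kif2a, which takes microtubules apart both at spindle poles and in growing axons, had 9.75 on each array.

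The remaining kinesins were Kif26a (7.00), Kif26b (6.32), Kifc3 (6.76), Kifc5b (6.22 ± 0.11) and Kif12 (5.35 ± 0.024). Kif26a and Kif26b encode kinesins that do not hydrolyse ATP, and both were above the reference level, with the same value on each array. Kifc3, a motor that walks to the minus end, was above. Kif12 was not above, with 5.33, 5.34 and 5.37. Kif26b, Kifc3 and Kifc5b were no longer called with a 99th percentile reference.

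The proteins that work with these motors were read from lists of the pathway. Over all genes, 59.1% were above the reference level and the median margin was 0.76. All 21 genes of spindle and cytokinesis partners were above it (median margin 2.76), among them Aurka (7.93), Aurkb (8.85 ± 0.20), Incenp (7.18), Birc5 (6.65), Cdca8 (7.44) and Prc1 (9.03). Aurkb, the kinase that Kif20a carries, had 8.79, 9.08 and 8.69.

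Of 23 measured light chain and cargo adaptor genes, 21 were above (91.3%, median margin 2.82), beside 59.1% and 0.76 for all genes. They included the kinesin light chain genes Klc1 (10.06) and Klc4 (6.91), Kifap3 (8.95 ± 0.050), and the mitochondrial adaptor genes Trak1 (10.46), Trak2 (9.26) and Rhot1 (9.92). The light chain gene Klc3 (5.23) and the liprin gene Ppfia4 (5.34) were not above. The list of cytoplasmic dynein, the motor of the opposite direction, also held genes of dynactin and of other partners. Of its 22 measured genes, 21 were above (95.5%, median margin 4.23). Among these were Dync1h1 (10.44), the heavy chain, and Dync1i2 (10.57), an intermediate chain gene, while its relative Dync1i1 stood at 4.77 on each array. All 14 intraflagellar transport genes, whose products ride on the Kif3a and Kif3b motor, were above (median margin 2.37), for example Ift20 (11.70) and Ift22 (9.84). Stard9, a mitotic kinesin outside the naming rule, had 8.31 and was above.

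The labelled cell type was checked against its markers. All 7 measured precursor markers (such as Sox2, Nes and Egfr), all 4 proliferation markers and all 7 neuroblast markers were above the reference level. The share over all genes was 59.1%. Of 10 mature neuron markers 5 were above (Rbfox3, Map2, Syn1, Syt1 and Snap25), and the glutamate transporter and neurofilament genes Slc17a7, Slc17a6, Nefl, Nefm and Nefh were not. The summed log2 signal of these 10 was 68.86, 68.86 and 69.28 on arrays 1, 2 and 3, beside 57.14, 57.43 and 56.76 for the 7 kinesins held to be enriched in neurons. The higher marker sum on array 3 came from genes not above the level, chiefly Slc17a7 (5.03, 5.03 and 5.32) and Slc17a6 (5.18, 5.08 and 5.31). None of the 5 markers above the level was higher on array 3 than on the other arrays. The kinesin sum moved mostly with Kif5c (7.95, 8.14 and 7.61). Of 8 ependymal and motile cilium markers 2 were above (Foxj1 and Ccdc153), beside 3 of 3 motile cilium kinesins. Markers of microglia were above in 3 of 6 cases, of endothelium in 1 of 5, of red blood cells in 0 of 2 and of testis in 0 of 4. Outside the precursor, proliferation and neuroblast lists, the share of each marker list was under that of all genes. Those counts do not tell whether such cells were present. The part of any of these cell types in the kinesin signals was not tested.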

How the data were processed

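The values are log2 signals for 41345 probe sets on 3 arrays, deposited by the authors. Per the submitters' processing notes they were computed by RMA. Its version, its options and the genome build of the probe design are not given in the sources used here. RMA summarises the probes of a set after background correction and normalisation between arrays, which can leave equal values on several arrays. Probe sets were named from the platform annotation, which can be old: 23521 carried 1 gene symbol, 1814 several (including 1 that names Kif3c) and 16010 none. The highest mean probe set stood for each of 22180 genes. The members and lists were chosen with earlier results of these data known. Kinesins of the mitotic and transport lists are given on each array, the others by mean, and of other lists up to 6 genes on either side of the level, in list order. Detection used limma 3.58.1 in R 4.3.3 (lmFit, eBayes with an intensity trend, Benjamini-Hochberg over all genes). Its prior degrees of freedom were infinite, so genes of like signal shared 1 spread. Tested on simulated data of 22180 genes, it recovered 29 of 50 genes set 0.25 above the level and 50 of 50 at 0.5. The 21980 other genes gave 0 false calls, but all were set 1 log2 unit below the level. The simulated noise also lacked the equal values of the data. The simulation therefore gives no rate of false calls for genes near the level. Promoter windows came from RefSeq (GRCm38.p6). The number of arrays limits the precision, n = 3. Alternatives changed the reference, the probe set, the scaling, the model, the filter and the arrays used. Python 3.11.15 and matplotlib 3.10.9 drew the plots.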

Additional observations from a re-analysis of the deposited data

How the results depend on the processing

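The counts above the reference level (37 kinesins, 11 mitotic and 16 transport) stayed within 1.5 times under every alternative run with the full lists. The 99th percentile gave 28, 11 and 14 (beside 44.9% of all genes), other reference genes (Krtap, Defa, Defb and Tas2r families) 25, 10 and 13 (beside 43.4%), and the 90th percentile 39, 12 and 16 (beside 66.7%). Leaving out each array in turn, quantile normalisation, median centring and the other models returned 37, 11 and 16, as did a filter on low values, with which 100% of the genes kept were above. Without Kif4-ps, Kifc1 and Kifc5b, left out after seeing the data, 36 of 39 remained. With the transport list cut to its 7 neuron-enriched members, all 7 were above. The mitotic minus transport difference moved to -0.70 with the median over probe sets, to -0.97 with Kif2a for Kif2b and to -0.44 with neuron-enriched members, and lay between -1.26 and -1.15 without 1 array. The count of members varying between arrays was 0 in each setting. For members lowest on array 3, alternatives chosen after seeing the data gave 10 to 9 mitotic and 10 to 6 transport kinesins without 1 array, and 11 and 16 with the reference level subtracted.

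Margins that changed sign were, at the 90th percentile, Kif12 (0.080), Kif27 (0.30) and Kifc1 (0.32), the last 2 then above the level. At the 99th percentile and with other reference genes they were Kif17 (-0.25 and -0.30), Kif26b (-0.080 and -0.13), Kif6 (-0.25 and -0.30) and Kifc5b (-0.18 and -0.23). A further 5 calls ended at the 99th percentile and 8 with other reference genes, among them Kif4 and Kif5a. No paired analysis was possible because the arrays form 1 group. The array signal over background limits what can be said of genes near the reference level.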
